A study of Ischnura elegans with 24 samples.

Results

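Larvae from southern and northern populations of Ischnura elegans, a common European damselfly, were compared after rearing at 24 °C, the warmer of the 2 temperatures in the study. The comparison used the 12 libraries labelled 24 °C of the 24 in the series, 6 southern and 6 northern. Each library held the pooled RNA of 3 whole male larvae in the final instar, and pools a and b from each population held different larvae. Populations northern 1, 2 and 3 and southern 1, 2 and 3 supplied 2 pools each, so 36 larvae stand behind the comparison. Larvae of both latitudes hatched from the eggs of several mothers per population, were reared one by one at 24 °C from hatching, and ate Artemia nauplii. The labels list no genotype, strain or chemical treatment for either group, and the exact age of the larvae is not given. The labels call the larvae F0. Pooling hides differences between single larvae. In whole bodies a smaller share of a tissue and less RNA per cell cannot be told apart.

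Damselfly larvae are aquatic predators whose body temperature follows that of the water. In this species, populations at low latitudes complete more generations per year than those at high latitudes and grow under warmer conditions. When larvae of both origins are reared from hatching in the same conditions, a difference between them reflects origin together with anything the mothers passed on, and the design does not part these. The series title asks whether plasticity to mild warming evolves by genetic compensation or by genetic assimilation. Here the question is how far the origins differ when both are reared warm.

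The measurement was a table of read counts for 34095 Trinity contigs, which are transcripts assembled from the reads without a genome. The files pair no contig with a gene, and 0 of the contig names matched the RefSeq gene table of the species. No gene, pathway or tissue marker could therefore be named, the tissue could not be checked against markers, and contigs are given by identifier, at most 2 in each direction. Contigs at 0 in 10 or more of the 24 libraries were left out, as were those with low counts, which left 31096 contigs. The rule on zeros removed 1283 contigs. Just inside it, the 98 contigs at 0 in 9 libraries had a median of 0.393 CPM (counts scaled by the library total to the usual CPM unit) at 24 °C, and just outside it the 105 contigs at 0 in 10 libraries had 0.470 CPM. Library totals were 13046281 to 17157615 counts in northern larvae (mean 14811729 ± 1580964, SD, n = 6) and 12810307 to 16868514 in southern larvae (14359716 ± 1593108, SD, n = 6). A count of 3, taken as the floor of detection, was worth 0.176 to 0.282 CPM, which covers counting error only. This floor is on library totals scaled by TMM factors, unlike the 2 medians above.

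The 12 libraries fell apart by latitude. In a principal component analysis of their log2 CPM, the first component held 19.6% of the variance, with southern libraries between 31.84 and 70.73 and northern libraries between -71.75 and -31.97. The nearest neighbour of each of the 12 libraries came from its own latitude, and for 6 of them it was the other pool of the same population. Distance between libraries was measured as the root mean square log2 difference over the tested contigs. Southern and northern libraries lay a median of 0.916 apart (range 0.855 to 1.10), libraries of different northern populations 0.881, and those of different southern populations 0.791. The 2 pools of a population lay a median of 0.799 apart in southern and in northern larvae, so this median was below that between populations in northern larvae and not in southern larvae. Without northern 2a, a library that stood apart, the medians were 0.907 between latitudes and 0.856 between northern populations.

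**Figure D1:**
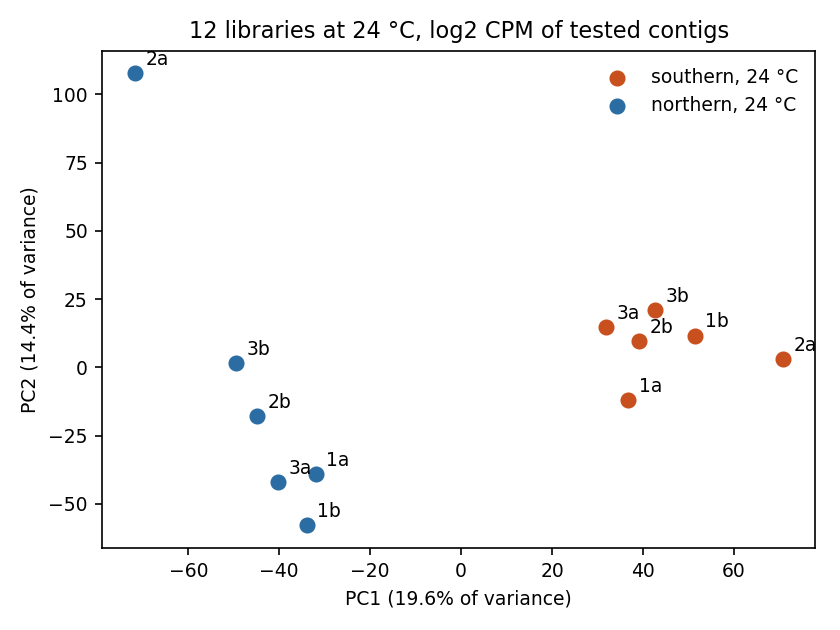
Principal components of log2 CPM in the 12 libraries reared at 24 °C, 1 point per library, labelled by population number and pool. The first component (19.6% of variance) parts southern from northern libraries without overlap, and the second (14.4%) parts northern 2a, at 107.7, from the other 11.

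A latitude difference was called in 145 of the 31096 contigs (0.466%). Southern larvae were above northern larvae in 54 (0.174%) and below them in 91 (0.293%). Differences were tested by edgeR's quasi-likelihood test on counts summed over both pools of a population, 3 populations against 3, with a Benjamini-Hochberg adjusted p under 0.05 as the call. The contigs that were higher exceeded the northern level by a median log2 difference of 1.80, and those that were lower had a median of -1.21. Among the called contigs 103 differed at least 2-fold and 43 at least 4-fold, while 2 differed by less than 1.5-fold. Over all tested contigs the median log2 difference was -0.02 and the median absolute difference 0.232. Abundant contigs were over-represented among the calls, whose median level was 19.8 CPM against 2.80 CPM for the tested contigs, and 20 calls averaged over 100 CPM.

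The split between directions depended on scaling. With raw library totals in place of TMM factors, 200 contigs were called, 132 higher and 68 lower in southern larvae, and the median log2 difference of all contigs moved from -0.02 to 0.17. Of the 145 contigs, 106 were called again there in the same direction. TMM factors were 0.928 to 1.15 in southern and 0.806 to 1.02 in northern libraries, so the 2 scalings set the latitudes against each other differently. All values below use TMM scaling.

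**Figure D2:**
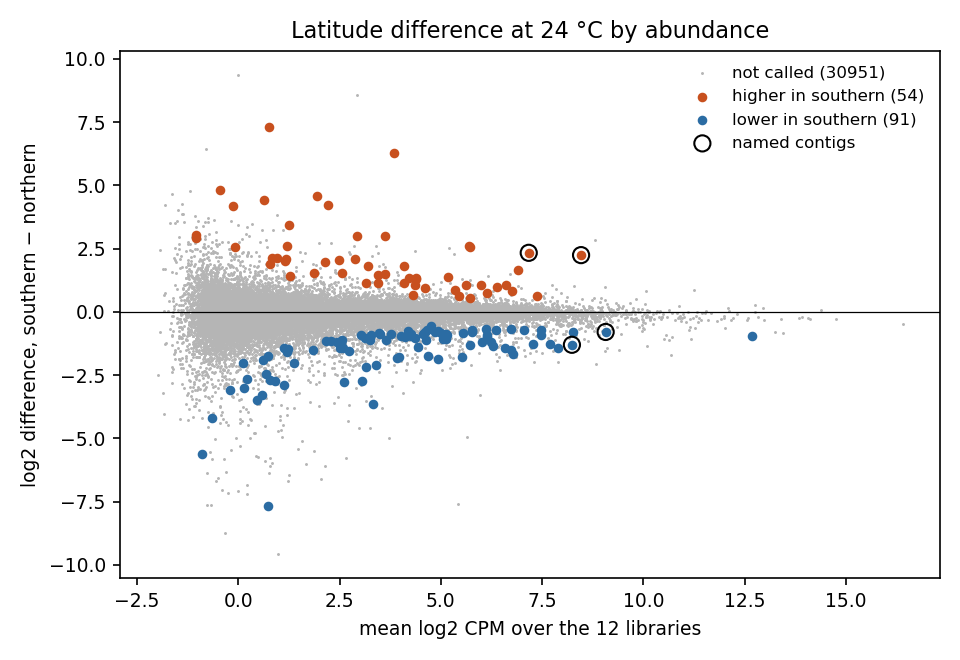
Log2 difference between southern and northern larvae at 24 °C against mean log2 CPM over the 12 libraries, 1 point per tested contig. The 54 contigs called higher and 91 called lower in southern larvae run from rare to abundant contigs, and large differences of rare contigs were mostly not called.

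Calls were more frequent among abundant contigs. When the tested contigs were divided into 4 equal groups by mean log2 CPM, 8 of 7774 were called in the rarest group (0.103%), 26 in the next (0.334%), 32 in the next (0.412%) and 79 in the most abundant (1.02%). The size of the differences ran the other way, with a median absolute log2 difference of 0.393 in the rarest group and 0.147 in the most abundant. The median standard error was 0.429 log2 units in the rarest group and 0.116 in the most abundant. These standard errors hold both counting error and the spread between populations.

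Large differences without regard to p were mostly lower in southern larvae under TMM scaling. At least 2-fold differences were seen in 2341 contigs (7.53%), and southern larvae had the higher level in 725 (2.33%) and the lower in 1616 (5.2%). With raw library totals, 1048 contigs were at least 2-fold higher and 1174 lower, so the size of this excess depended on the scaling. At 16-fold or more under TMM scaling, 15 contigs were higher and 73 lower, of which 7 and 3 were called. A single library moved with these counts. In northern 2a, 122 contigs were at 1 CPM or more and at least 8 times their level in any other library at 24 °C, a set chosen after the values were seen. All 122 were at least 2-fold lower in southern larvae, and 17 of them were so without northern 2a. Without that library 874 contigs were at least 2-fold higher and 1495 lower, and at 16-fold or more the counts were 23 and 27. None of the 145 called contigs belonged to the 122.

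Complete separation of single libraries was also counted, since the test used population sums. All 6 southern libraries lay on one side of all 6 northern libraries in 1070 contigs (3.44%), 446 of them higher (1.43%) and 624 lower (2.01%) in southern larvae. Those that were higher differed by a median of 0.55 log2 units and those that were lower by 1.02. Of the 145 called contigs, 126 separated in this way (86.9%), 46 of the 54 that were higher and 80 of the 91 that were lower. The test itself favours such contigs, so this share only describes the calls. The difference also had the same sign in pool a and in pool b for each of the 145 contigs, against 62.1% of all tested contigs, and both pools had entered the choice. Across all tested contigs the latitude difference in pool a and that in pool b correlated at r = 0.416 (Spearman rho 0.328), with different larvae but the same 6 populations on both sides.

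Among contigs higher in southern larvae, 39 met the naming rule, which asked for a call, a mean of at least 1 log2 CPM and no overlap among the 12 libraries. The 2 most abundant of these are described here. TRINITY_DN6224_c8_g1_i1 ranked 217 of the 31096 contigs by mean level. In southern larvae it was at 543.9 and 793.4 CPM in the pools of population 1, at 1363 and 523.8 CPM in population 2, and at 732.5 and 953.1 CPM in population 3. In northern larvae it was at 247.9 and 95.5 CPM, at 79.65 and 228.9 CPM, and at 145.7 and 273.2 CPM in the same order. The gap between the lowest southern and the highest northern pool was wider than the whole range of the northern pools. The southern mean of 818.3 ± 311 CPM (SD, n = 6) stood against 178.5 ± 82.6 CPM, a 4.74-fold difference (log2 2.25 ± 0.17 SE, edgeR adjusted p = 0.00645). The call ended without northern 2b (adjusted p = 0.0836) or southern 2b (0.0604), with log2 differences of 2.44 and 2.46.

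TRINITY_DN13136_c0_g6_i1 was at 196.9 and 275.1 CPM in southern population 1, at 544.6 and 172.9 CPM in population 2 and at 301.7 and 570.4 CPM in population 3. The northern pools were at 64.75 and 36.75 CPM, 65.75 and 86.63 CPM, and 67.83 and 97.65 CPM. Southern pools varied more than northern pools in CPM, and southern 2b was the lowest southern library for this contig as for the one before. The means were 343.6 ± 173 and 69.89 ± 21.0 CPM (SD, n = 6), a 5.05-fold difference (log2 2.34 ± 0.28 SE, edgeR adjusted p = 0.0392). The call ended when any 1 population other than southern 1 was left out, or any of northern 1a and 3a and southern 1b, 2a, 2b and 3a (adjusted p 0.055 to 0.143, log2 differences 2.04 to 2.56). The other contig of its Trinity gene, with southern and northern means of 95.17 ± 54.1 and 20.08 ± 6.97 CPM (SD, n = 6), had a similar difference (log2 2.29 ± 0.33 SE) that just missed the threshold (edgeR adjusted p = 0.058). Reads could have been split between the 2 contigs.

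Among contigs lower in southern larvae, 68 met the naming rule. The most abundant of them, TRINITY_DN122574_c1_g1_i1, was also the least variable of the named contigs. Its southern pools were at 412.0 and 348.5 CPM in population 1, 374.4 and 442.1 CPM in population 2 and 469.9 and 405.5 CPM in population 3. The northern pools were at 709.4 and 647.5 CPM, 604.3 and 780.9 CPM, and 739.5 and 796.2 CPM. All 3 southern populations were close together and all 3 northern populations were clearly higher, with a gap of more than 100 CPM between the groups. The means were 408.7 ± 44.0 and 713.0 ± 75.3 CPM (SD, n = 6), a 1.73-fold difference (log2 -0.79 ± 0.096 SE, edgeR adjusted p = 0.0325). The call ended without any 1 population other than northern 1, or without northern 1a or 2b or southern 1b, 2a, 2b or 3b (adjusted p 0.0532 to 0.143, log2 differences -0.84 to -0.73).

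TRINITY_DN2391_c7_g2_i1 was at 280.8 and 182.2 CPM in southern population 1, at 183.2 and 183.7 CPM in population 2 and at 224.4 and 126.9 CPM in population 3. Northern pools were at 440.1 and 426.7 CPM, 381.5 and 519.7 CPM, and 675.1 and 457.7 CPM. The groups did not overlap, and northern 3a was the highest library. The means were 196.8 ± 51.5 and 483.5 ± 104 CPM (SD, n = 6), a 2.46-fold difference (log2 -1.30 ± 0.16 SE, edgeR adjusted p = 0.0327). The call ended without any 1 population other than northern 1, or without northern 2b or 3b or southern 1b, 2b or 3a (adjusted p 0.055 to 0.143, log2 differences -1.43 to -1.15).

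**Figure D3:**
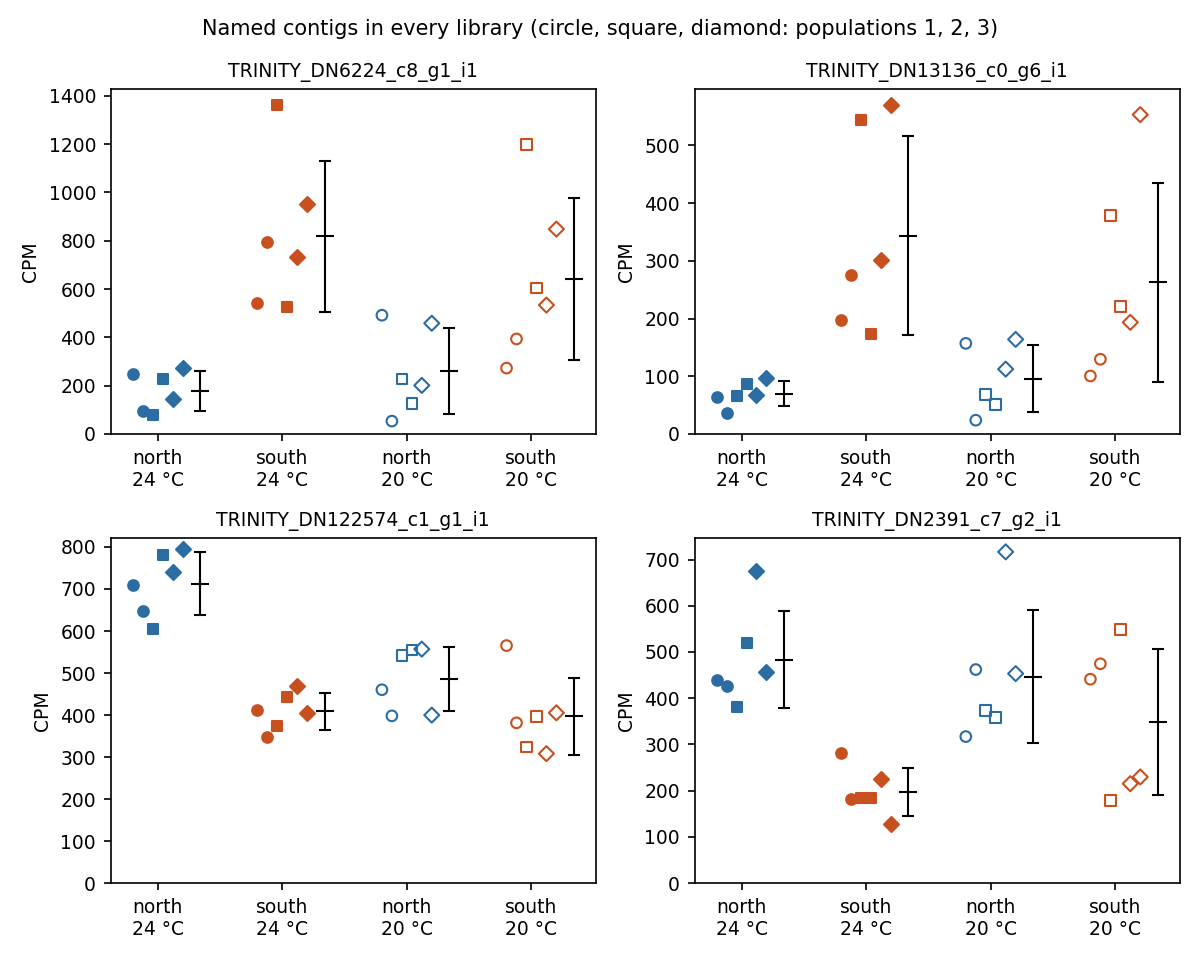
CPM of the 4 named contigs in each library, by latitude and temperature, with the mean and SD of the 6 libraries beside each group. At 24 °C (filled symbols) the southern and northern libraries do not overlap for any of the 4 contigs, which the naming rule required, and at 20 °C (open symbols) they overlap for each of them.

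The most abundant of all called contigs did not meet the naming rule, because its single libraries overlapped. It ranked 14 by mean level and ran from 2863 to 7041 CPM over the southern libraries and from 6672 to 10910 CPM over the northern ones. The means were 4903 ± 1460 and 9375 ± 1880 CPM (SD, n = 6), a log2 difference of -0.94 ± 0.14 SE that passed narrowly (edgeR adjusted p = 0.0497). It supplied on average 58.7% of the northern counts of the 91 contigs that were lower in southern larvae, the next most abundant of which averaged 560.8 CPM. Together the 91 contigs took 0.555 to 1.04% of a southern library and 1.09 to 1.69% of a northern library at 24 °C. The 54 contigs that were higher took 0.257 to 0.550% and 0.0831 to 0.113%. These shares are of raw totals and describe contigs chosen on the same libraries.

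The number of calls rested on single libraries and populations. Without 1 population the count was 124, 55 and 44 for northern 1, 2 and 3, and 30, 15 and 95 for southern 1, 2 and 3. Without 1 library it was 53 and 267 for northern 1a and 1b, 363 and 37 for northern 2a and 2b, and 85 and 44 for northern 3a and 3b. For southern libraries it was 218 and 42 without 1a and 1b, 44 and 20 without 2a and 2b, and 167 and 66 without 3a and 3b. Of the 145 contigs, 10 were called in all 6 fits that left out 1 population and 46 in none of them. The direction could not turn in these fits, because the population values of the 145 contigs do not overlap between latitudes.

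**Figure D4:**
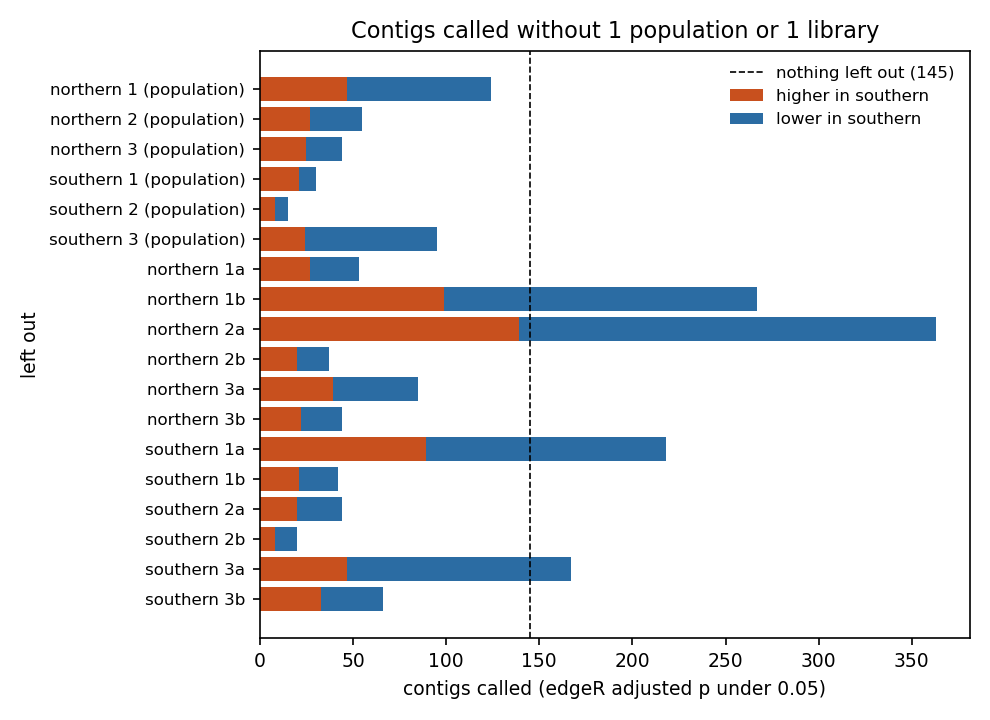
Number of contigs called between latitudes at 24 °C when 1 population (upper 6 bars) or 1 library (lower 12 bars) was left out, parted by direction. The dashed line is the count with nothing left out (145), and the bars run from 15 without southern population 2 to 363 without northern 2a.

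The spread between pools bears on these calls. For the tested contigs, the median SD between population values was 0.223 log2 units in southern and 0.274 in northern larvae. Pools of a population alone, with the spread between pools divided by the square root of 2, would give 0.236 and 0.244. For the called contigs the population values lay closer together than that, with a median SD of 0.196 against 0.353 from the pools in southern and 0.187 against 0.256 in northern larvae. In 88 of the 145 called contigs (60.7%) the population SD was below the value from the pools in both latitudes, against 21.2% of tested contigs. The test itself favours contigs whose population values lie close together, so this share only describes the calls. The small standard errors of the called contigs hold for these population sums and understate how single pools differed. With the 12 libraries taken as independent, 1170 contigs were called, 135 of the 145 among them. That fit takes both pools of a population as replicates of latitude and reuses the same counts, so it gives the calls no added support.

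Most called contigs were the only deposited contig of their Trinity gene. The 145 contigs came from 142 Trinity genes, of which 112 had 1 deposited contig and 30 had more, up to 6. Of all deposited Trinity genes, 88.4% had 1 contig, so single contigs were not particular to the calls. Some of the 142 Trinity genes share the first part of their identifier and had similar differences, and whether they are separate genes was not tested. That of the named TRINITY_DN2391_c7_g2_i1 is among them, and the other called contigs that share its first part were also lower in southern larvae. In the 3 Trinity genes with 2 called contigs, both moved in the same direction. Of the 38 other tested contigs in these genes, 33 had the same sign as the called contig, 20 of them at an unadjusted p under 0.05. The other 5 had the opposite sign, 1 of them at an unadjusted p under 0.05. When counts were summed over each Trinity gene, 87 of 27081 genes were called (0.321%), 33 higher and 54 lower in southern larvae. These included 85 of the 142 genes with a called contig, all in the direction of the contig, and 2 genes with none. Among the 30 genes with several contigs, 11 were called and all 30 had the sign of their called contig. Reads shared by similar contigs could have been split among them, and the use of strand is not given.

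The populations at the extremes were counted for the called contigs, without a test. Of the 54 contigs that were higher in southern larvae, population 2 was the highest southern population in 25, population 3 in 19 and population 1 in 10. Over all tested contigs the counts were 10007, 10848 and 10241. The highest northern population of these 54 contigs was population 1 in 18, population 2 in 17 and population 3 in 19, against 10836, 10329 and 9931 over all tested contigs. Of the 91 that were lower, northern population 1 was the lowest northern population in 38, population 3 in 31 and population 2 in 22, against 10851, 9658 and 10587 over all tested contigs. The lowest southern population of these 91 contigs was population 1 in 34, population 2 in 34 and population 3 in 23, against 10082, 10597 and 10417 over all tested contigs.

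The same contigs were followed in the 12 libraries at 20 °C, which came from other larvae of the same populations. The sign at 20 °C was that at 24 °C in 140 of the 145 contigs (96.6%), against 68.6% of all tested contigs. An unadjusted p under 0.05 with the same sign was seen at 20 °C in 98 of them, against 13% of all tested contigs. With adjustment over all tested contigs, edgeR called 0 contigs at 20 °C (4514 at an unadjusted p under 0.05, smallest adjusted p = 0.164), so none of the 145 passed there. At 24 °C, 4497 contigs had an unadjusted edgeR p under 0.05, so the share of tested contigs was 14.5% at each temperature. The median log2 difference of the contigs higher in southern larvae was 1.80 at 24 °C and 1.12 at 20 °C, and that of the contigs lower was -1.21 and -0.70. The difference was larger at 24 °C in 129 of the 145, against 15749 of all 31096 tested contigs. Having been chosen at 24 °C, the contigs favour that temperature. The test of the difference between both latitude gaps, with 1 intercept per population, called 0 of 31096 contigs by edgeR (1237 at an unadjusted p under 0.05, 3.98%) and 37 by DESeq2, 7 of them among the 145. By the edgeR test none of the 145 was thus shown to differ between latitudes at 24 °C more than at 20 °C.

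The 4 named contigs also had larger gaps at 24 °C than at 20 °C, without passing the test of that difference. At 20 °C, TRINITY_DN6224_c8_g1_i1 averaged 641.8 ± 336 CPM in southern larvae, against 259.7 ± 178 CPM in northern ones (SD, n = 6). Its latitude gap was 1.03 ± 0.24 log2 units (SE) wider at 24 °C, and TRINITY_DN13136_c0_g6_i1 had a gap wider by 0.965 ± 0.36. TRINITY_DN122574_c1_g1_i1 had a southern mean of 396.9 ± 91.4 CPM and a northern mean of 485.4 ± 75.8 CPM at 20 °C. TRINITY_DN2391_c7_g2_i1 was at 347.9 ± 158 and 446.8 ± 144 CPM at 20 °C. Their gaps at 24 °C differed from those at 20 °C by -0.50 ± 0.19 and -0.94 ± 0.20 log2 units. None of these 4 differences passed (edgeR adjusted p = 1 for each). The most abundant called contig had a log2 latitude difference of 0.155 at 20 °C, opposite in sign to that at 24 °C.

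**Figure D5:**
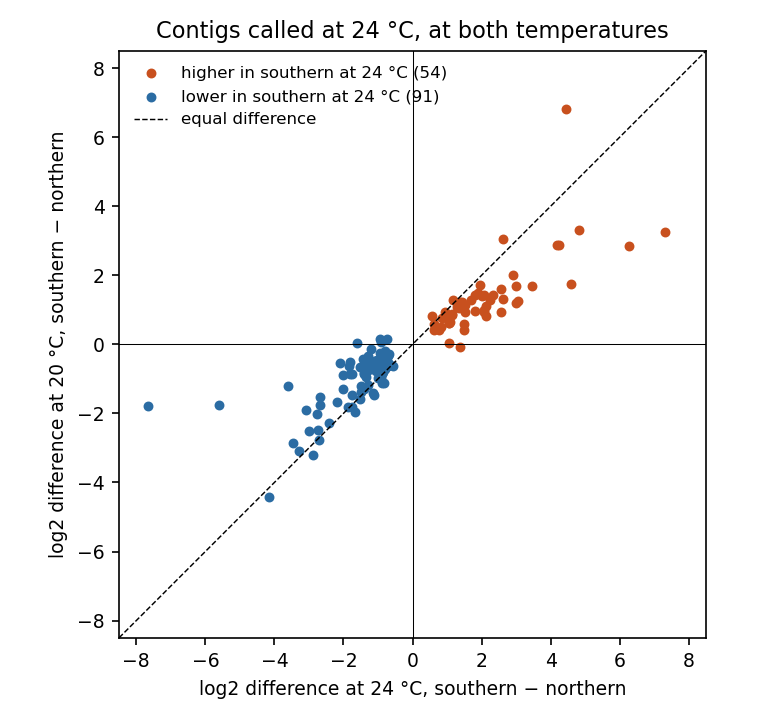
Log2 difference between southern and northern larvae at 20 °C against that at 24 °C for the 145 contigs called at 24 °C. Of these, 140 have the same sign at both temperatures, and 129 have the larger difference at 24 °C, the temperature on which they were chosen. Of all 31096 tested contigs, 68.6% have the same sign and 15749 the larger difference at 24 °C.

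Libraries also differed in how counts were distributed over contigs. The 100 most abundant contigs of each library took 42.6% ± 1.5 of the southern counts and 46.2% ± 1.36 of the northern counts (SD over populations, n = 3, exact permutation p = 0.1, adjusted 0.133 over 4 measures). The effective number of contigs, the exponential of the Shannon entropy, was 1643 ± 139 and 1315 ± 97.1 (SD, n = 3, exact permutation p = 0.1, adjusted 0.133). Southern libraries had counts for 32764 ± 102 of the deposited contigs and northern libraries for 33071 ± 247 (SD, n = 3, exact permutation p = 0.1, adjusted 0.133). That number was not adjusted for library totals, which averaged 14359716 in southern and 14811729 in northern libraries. Population values did not overlap in these 3 measures, but single libraries did. TMM factors averaged 1.02 ± 0.0527 and 0.890 ± 0.0639 (SD, n = 3, exact permutation p = 0.2). The tests were two-sided, and 3 populations against 3 cannot give a p below 0.1. The part of these library differences in the contig calls was not tested.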

How the data were processed

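The authors deposited raw read counts per Trinity contig for 24 libraries, 12 of them at 24 °C. FastQC 0.11.5, Trimmomatic 0.36, featureCounts and Subread 1.5.1 are named, per the submitters' processing notes, without their roles. How contigs were assembled, aligned to and counted by strand is not given in the sources used here. Every deposited contig exceeded 1 CPM in at least 2 libraries. Contigs at 0 in 10 or more of the 24 libraries and those failing edgeR's filterByExpr (minimum count 10, minimum total 15) were left out. Pools of a population were summed, and southern and northern populations were compared with edgeR 4.0.16 (R 4.3.3, TMM, robust quasi-likelihood F test, Benjamini-Hochberg adjustment over 31096 contigs). SE values are those implied by the F statistics. Levels are CPM on TMM-scaled totals, with a prior count of 2 on the log2 scale. limma 3.58.1 and DESeq2 1.42.0 served as alternatives. The latitude test was tried on simulated counts first, where it recovered 14% of 100 contigs changed 2-fold and 62% of 100 changed 4-fold. The changed contigs were drawn only from those above a minimum expected count, and the simulated spread was estimated from these data. The rates do not cover rarer contigs. A contig that was not called is thus not shown to be equal between latitudes.

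Contigs were named by a rule: an adjusted p under 0.05, a mean of at least 1 log2 CPM and no overlap among the 12 libraries, then the 2 with the highest mean CPM in each direction. The members, the rule and the tests were chosen with earlier results of these data known. Chi-square per degree of freedom between the pools of a population was 12.92 to 40.67, so no pair of pools agreed within sampling noise. P-values rest on the spread between these 6 populations. Alternatives were other tools, scalings, filters and replicate units, single pools, and leaving out each population or library.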

Additional observations from a re-analysis of the deposited data

Results flagged for a closer look

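Of 46 sets of values over 6 libraries examined for a library far from the other 5, 7 had one. Chance gives about 1 in 20 sets, but the 7 cannot be set against that rate, since several describe the same library and 1 is the level of contigs picked for being high there. Northern 2a at 24 °C lay far out on the second principal component (107.7). It held 122 contigs at 8 or more times their level in any other library at 24 °C, while the other 11 libraries held 0 to 3 such contigs. These contigs, from 114 Trinity genes, summed to 29210 CPM in northern 2a, or 2.51% of its counts, and no single contig gave more than 15.5% of that sum. In southern larvae at 20 °C, pool 3b stood apart in the same set, with 4700 CPM, and there 62 of the 122 contigs were at 4 or more times their median in the remaining 22 libraries. Those 22 libraries held 264.7 to 503.7 CPM of the set. The set thus stood out in 2 pools of different latitude, temperature and population.

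Contigs left out by the filters took 1.43% of counts in northern 2a at 24 °C, far above the other northern libraries (0.109 to 0.433%). The contigs left out with 1000 or more counts there numbered 30, and they held 163756 counts in that library. In southern larvae at 24 °C, pool 2b was the outlying one with 0.330% of counts in left-out contigs, against 0.136 to 0.197% in the other 5.

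TRINITY_DN2391_c7_g2_i1 was at 716.5 CPM in northern 3a at 20 °C, apart from the other 5 northern libraries at that temperature (317.0 to 462.0 CPM). It was also highest in northern 3a among the libraries at 24 °C.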

How the results depend on the processing

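The count of 145 contigs stayed within 1.5 times under 6 of 32 alternatives. It was 1407 by DESeq2, which included all 145, 86 by limma voom and 74 without robust estimation. It was 255 with a minimum count of 50, 371 with 12 population sums of both temperatures, 1170 with libraries as independent and 779 by limma with population as a random block (correlation 0.053). Pool a alone gave 1 call and pool b alone 29. With 1 population or library left out it ran from 15 to 363. With population number as a replicate block it was 78, and for Trinity genes 63 against 87. The labels do not say that same-numbered populations belong together, and the main fit did not pair them. Deviations of same-numbered populations correlated at -0.0594 to 0.072, and those of other numbers at -0.102 to 0.14. So few values cannot show whether same numbers shared a batch. Trinity genes called were 1302 by DESeq2 and 12 to 106 without 1 population. The difference between latitude gaps gave 37 calls by DESeq2 and 0 in the other alternatives run. The cause of these shifts was not tested. Leaving out a population, chosen after the data were seen for the library measures, reversed none of them. The naming rule, which bars overlap of the libraries, fixed the sign of the 4 named contigs in fits on fewer libraries. Of 32 alternatives, TRINITY_DN6224_c8_g1_i1 passed in 28, TRINITY_DN13136_c0_g6_i1 in 19, TRINITY_DN122574_c1_g1_i1 in 18 and TRINITY_DN2391_c7_g2_i1 in 20, with adjusted p up to 0.289, 0.252, 0.278 and 0.291. No alternative changed the depth. Standard errors were larger for rare than for abundant contigs.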

Other observations

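Few contigs were near absence in one latitude at 24 °C. At most 3 counts in each southern library and more than 3 in each northern library were seen in 3 tested contigs, 1 of them called. The reverse was seen in 4 contigs, 2 of them called. No tested contig was at 0 in all 6 libraries of a latitude at 24 °C. The filter on zeros had removed any contig at 0 throughout a latitude at both temperatures.

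Separation of the latitudes held across both temperatures for a small group. Of the 446 contigs whose 6 southern libraries all exceeded the 6 northern ones at 24 °C, 37 also separated at 20 °C in that direction. In 21 of them all 12 southern libraries of both temperatures exceeded all 12 northern ones. Of the 624 contigs with the reverse order at 24 °C, 85 separated at 20 °C as well and 37 across all 24 libraries. Of all 31096 tested contigs, 251 separated at 20 °C with southern libraries higher and 319 with southern libraries lower. Among the called contigs, 4 that were higher and 10 that were lower in southern larvae separated across all 24 libraries.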
